A study of Homo sapiens with 6 samples.

Results

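S100 proteins and annexins are calcium-binding proteins that often act in pairs, and the 10 genes described here are S100A2, S100A4, S100A6, S100A10, S100A11, ANXA1, ANXA2, ANXA3, ANXA5 and ANXA6. They were chosen by gene name from the 58302 genes of the deposited table, and all 10 passed edgeR's filter on low counts, which kept 15572 genes. The libraries came from MDA-MB-231-DR cells, which were made resistant to doxorubicin from MDA-MB-231, a breast cancer line that lacks the hormone receptors and HER2 amplification. There were 3 control libraries of MDA-MB-231-DR cells labelled with no treatment and 3 libraries of the same cells after treatment with CYT (cyperotundone), a compound of sedge. Both groups carried the resistance, and the methods state that the line was maintained in medium with a low level of doxorubicin. Whether the drug was present during CYT treatment for sequencing is not given in the sources used here, and a parental line was not compared here. The dose and duration of CYT treatment for these libraries are not given in the sources used here, nor are separate cultures named for the libraries of a group. The methods speak of independent experiments for data in general, not for sequencing, so p-values measure the spread between libraries, which may be technical.

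S100 proteins are small EF-hand proteins that usually form dimers and expose a binding surface when calcium rises. Annexins carry a conserved core that binds acidic phospholipids in the presence of calcium, so they move to membranes during signalling, vesicle traffic and the sealing of wounds in the plasma membrane. Several S100 dimers grip the free N-terminal tail of an annexin. The best known pair is S100A10 with annexin A2, a complex at the inner and outer face of the plasma membrane that also binds plasminogen and its activator. In breast cancer cells S100A4 and annexin A2 are studied mostly for their links to migration and invasion.

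Total gene counts were 14050849 to 17770102 in control and 13056270 to 14106017 in CYT libraries. Across genes, the log2 levels of 2 libraries of a group correlated with r between 0.901 and 0.974, and both pairs at 0.901 held CYT replicate 2. The markers of a mesenchymal breast cancer line (VIM, CD44, AXL, MSN and CAV1) were all detected, with a summed level of 4463 to 4865 CPM in control and 2281 to 2414 CPM in CYT libraries. CPM is the usual depth-scaled count, with library sizes scaled by TMM. The 6 luminal markers summed to 6.83 to 14.6 CPM over all libraries, with ESR1 at no more than 4 and PGR at no more than 3 counts, GATA3 at 33 to 93 and FOXA1 at 34 to 141. The 5 blood and immune markers summed to 5.41 to 23.6 CPM over all libraries, with CD3E at 0 and CD68 at 47 to 378 counts. The 5 fibroblast markers summed to 19.1 to 35.8 CPM in control and 3.99 to 6.42 CPM in CYT libraries, with DCN at 0, COL1A1 at 35 to 316 and PDGFRB at 7 to 262 counts. The part of these markers in the results was not tested.

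ANXA2 was the most counted of the 10 genes, and its counts cannot be read without those of its processed pseudogene ANXA2P2. The pseudogene (chromosome 9 of GRCh38, 33624274 to 33625293) is an intronless copy of the annexin A2 mRNA. Over the 1020 coding bases of ANXA2 in GENCODE 29, the copy differed at 16 bases (98.4% identity). A window of 100 coding bases was identical in both at 31.2% of positions and differed by no more than 2 bases at 78.3%. The sequences below are shown because they decide whether a read can be assigned to 1 of the genes. The first pair holds coding bases 1 to 120 from the start codon, which include the codons of the tail that S100A10 binds, and the second pair holds bases 101 to 220, the stretch of 120 bases with the most differences. Capitals mark the bases that differ.
ANXA2, bases 1 to 120: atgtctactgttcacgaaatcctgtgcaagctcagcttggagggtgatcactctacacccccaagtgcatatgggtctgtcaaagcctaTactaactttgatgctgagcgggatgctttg
ANXA2P2, bases 1 to 120: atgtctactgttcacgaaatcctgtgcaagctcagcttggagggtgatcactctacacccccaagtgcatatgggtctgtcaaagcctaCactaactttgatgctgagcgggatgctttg
ANXA2, bases 101 to 220: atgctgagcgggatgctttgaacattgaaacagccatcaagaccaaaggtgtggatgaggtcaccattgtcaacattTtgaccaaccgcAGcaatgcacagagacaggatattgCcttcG
ANXA2P2, bases 101 to 220: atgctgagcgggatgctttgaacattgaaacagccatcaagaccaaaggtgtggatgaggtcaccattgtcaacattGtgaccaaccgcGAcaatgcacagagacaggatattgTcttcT
Only 1 base in the first stretch and 5 in the second distinguish the gene from the copy. How reads with several matches were counted is not given in the sources used here, so the split of counts between ANXA2 and ANXA2P2 is uncertain.

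In the comparison of CYT-treated with control cells, ANXA5 was the single member called, and it rose 1.76-fold. ANXA6, fitted 2.12-fold lower, and ANXA2, fitted higher by 0.70 on the log2 scale, had unadjusted p-values under 0.05 but did not pass the test after adjustment. None of the 5 S100 members was called. Called means an adjusted p under 0.05 over all 15572 genes, by edgeR's quasi-likelihood method and the Benjamini-Hochberg procedure. By this rule 1 of 10 members was called, beside 28.6% of all genes tested (15.7% higher and 12.9% lower after CYT treatment). The study names a log2 fold change over 1 as its criterion. Read as an absolute value and joined to the adjusted p, it was passed by 0 members and 27.4% of all genes. At an unadjusted p under 0.05 there were 3 members (ANXA2, ANXA5 and ANXA6), beside 40.9% of all genes. Past both criteria there was 1 member, ANXA6, with DESeq2, the replicate block, no filter, or without control replicate 2. With the length correction and the block there was also 1 member, but it was S100A4. In these fits 16% to 32.2% of all genes were past both criteria. Over the 10 members the log2 fold changes ran from -1.09 to 0.81 with a median of -0.21, 4 positive and 6 negative, beside a median of 0.00636 over all genes. In 2 of 10 members, ANXA2 and ANXA5, every CYT library lay above every control library, beside 46.1% of all genes without overlap in either direction. In bulk RNA, fewer cells with a transcript and less of it per cell cannot be told apart.

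**Figure D1:**
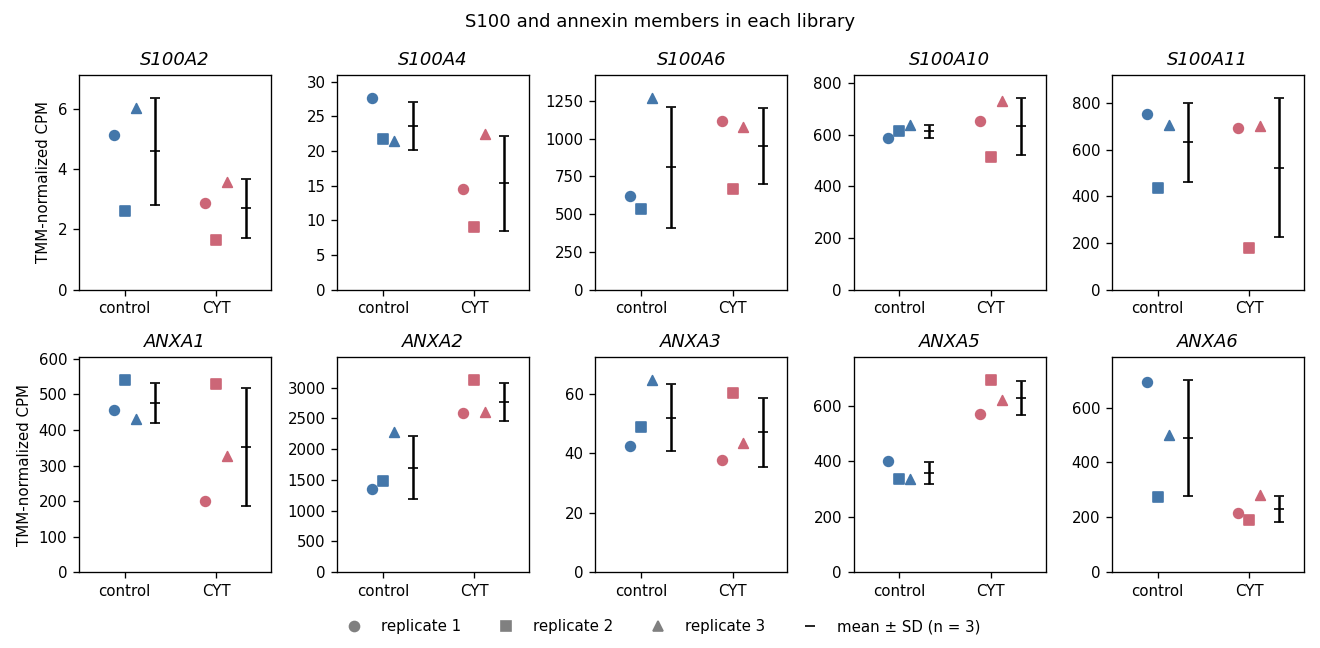
TMM-normalized CPM of each member (y axes start at 0) in the 3 control (blue) and 3 CYT (red) libraries, with the marker shape giving the replicate number and the bar the mean ± SD (n = 3). ANXA2 and ANXA5 are higher in every CYT library than in any control library, and CYT replicate 2 (square) is the lowest CYT library for all 5 S100 members.

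Among the annexins, ANXA5 (ENSG00000164111, chromosome 4, 121667955 to 121697113, minus strand) encodes the annexin used in labelled form to detect phosphatidylserine on dying cells. It had 400.5, 333.7 and 335.5 CPM in control replicates 1 to 3 and 569.4, 690.6 and 619.1 CPM in CYT replicates 1 to 3. The groups did not overlap, and each was narrow. Their means were 357 ± 38 and 626 ± 60.9 CPM (SD, n = 3 each), a log2 fold change of 0.81 (standard error 0.26, 95% confidence interval 0.23 to 1.39, edgeR adjusted p = 0.0415). The direction held in all 18 alternative fits and the call in 12 of them. With libraries left out singly, the call held without CYT replicate 2 (edgeR adjusted p = 0.0375). It was lost without control replicate 1, 2 or 3 (edgeR adjusted p = 0.0768, 0.108 and 0.151) and without CYT replicate 1 or 3 (0.0904 and 0.0879), and also without a filter on low counts (0.122).

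ANXA6 (ENSG00000197043, chromosome 5, 151100712 to 151157882, minus strand) encodes an annexin with a duplicated core that acts in endocytosis and cholesterol traffic. Its level was 693.9, 274.6 and 499.6 CPM in control and 216.7, 191.7 and 282.8 CPM in CYT replicates 1 to 3. Control replicate 2 lay just below CYT replicate 3, so the groups overlapped by that library alone. The log2 fold change was -1.09 (standard error 0.37, 95% confidence interval -1.91 to -0.26, edgeR adjusted p = 0.0515), narrowly short of the threshold. ANXA6 was called lower with the replicate number as a block (edgeR adjusted p = 0.023), so that 2 of 10 members were then called, beside 39.9% of all genes. DESeq2 (-1.05, its adjusted p = 0.0276) and the fit without control replicate 2 (-1.38, edgeR adjusted p = 0.0196) called it lower too. Without any other library it was not called (edgeR adjusted p from 0.0708 to 0.183), and its log2 fold change was -0.77 without control replicate 1. In all, 7 of 18 alternatives called ANXA6, each as lower.

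ANXA2 (ENSG00000182718, chromosome 15, 60347134 to 60402883, minus strand) encodes the partner of S100A10. It stood at 1346, 1475 and 2283 CPM in control and at 2585, 3117 and 2599 CPM in CYT replicates 1 to 3. Every CYT library was above every control library, but control replicate 3 came near them. The log2 fold change of 0.70 (standard error 0.29, 95% confidence interval 0.052 to 1.35) did not pass the test (edgeR adjusted p = 0.0989), and with the pseudogene counts added it was 0.72 (edgeR adjusted p = 0.0956). ANXA2 was called higher where the block was joined to the length correction (0.87, edgeR adjusted p = 0.0395), and with the GC and length correction without and with the block (0.75 and 0.80, edgeR adjusted p = 0.0419 and 0.0409). ANXA2P2 itself had 8288, 8610 and 12121 counts in control and 13170, 17921 and 11938 counts in CYT replicates 1 to 3. That was 31.1% to 40.9% of the ANXA2 count in the same library, with no separation of the groups (mean difference 1.97 percentage points, two-sided p = 0.6 from an exact permutation test). The log2 fold change of ANXA2P2 was 0.77 (edgeR adjusted p = 0.102) and that of ANXA2P1, a second pseudogene on chromosome 4, was 0.80 (edgeR adjusted p = 0.163). Since so few bases separate the gene from ANXA2P2, the ANXA2P2 values are not a second measurement of the same change. ANXA2P1 is less alike, with 93.8% identity over the aligned bases. Of windows of 100 coding bases, 15.9% differed from it by no more than 2 bases. ANXA2P1 held 53 to 111 counts a library.

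ANXA1 (ENSG00000135046, chromosome 9, 73151757 to 73170393, plus strand) encodes lipocortin 1, which restrains phospholipase A2 and signals through formyl peptide receptors. Its CPM values were 457.6, 539.6 and 430.9 in control and 200.3, 528.6 and 327.4 in CYT replicates 1 to 3. CYT replicate 2 stood within the control range, whereas CYT replicates 1 and 3 were below every control library. A log2 fold change of -0.44 was fitted (95% confidence interval -1.25 to 0.38, edgeR adjusted p = 0.399), and without CYT replicate 2 it was -0.86 and called (edgeR adjusted p = 0.0469). Without CYT replicate 1 it was -0.16 (edgeR adjusted p = 0.791). For ANXA3 (ENSG00000138772, chromosome 4, 78551519 to 78610451, plus strand), 42.59, 48.93 and 64.63 CPM in control and 37.94, 60.29 and 43.46 CPM in CYT libraries overlapped. Its log2 fold change was -0.14 (95% confidence interval -0.84 to 0.56, edgeR adjusted p = 0.773).

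The 5 S100 members all lie on the minus strand of chromosome 1, in the S100 cluster of band 1q21. S100A10 (ENSG00000197747, 151982915 to 151994390) encodes p11, an S100 protein that stays in its open form without calcium. It had 587.3, 614.9 and 636.6 CPM in control and 654.6, 513.3 and 730.9 CPM in CYT replicates 1 to 3. These ranges overlapped, and the log2 fold change of 0.046 had a 95% confidence interval of -0.54 to 0.64 (edgeR adjusted p = 0.914). S100A11 (ENSG00000163191, 152032506 to 152047907), whose protein binds the tail of annexin A1, was measured at 752.5, 437 and 707.8 CPM in control and 693, 177.7 and 700.9 CPM in CYT libraries. CYT replicate 2 was 3.94-fold below the highest CYT library. The log2 fold change of S100A11, -0.27 (95% confidence interval -1.35 to 0.80, edgeR adjusted p = 0.706), was 0.14 (edgeR adjusted p = 0.73) without that library. S100A11 was called lower where the block was joined to the length correction (-0.95, edgeR adjusted p = 0.0413) or to the GC and length correction (-0.88, edgeR adjusted p = 0.0322). The antisense gene AL450992.1 over S100A11 had 0 counts in every control library and 23, 45 and 15 counts in CYT replicates 1 to 3, against 2497 counts or more for S100A11. The use of strand in counting is not given in the sources used here, so reads of such pairs cannot be assigned with certainty.

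S100A6 (ENSG00000197956, 153534599 to 153536244) encodes calcyclin, named for its link to the cell cycle. Its level was 620.6, 536.4 and 1269.9 CPM in control and 1113, 662.7 and 1074 CPM in CYT replicates 1 to 3. A single library, control replicate 3, was the highest of all 6, and the log2 fold change was 0.23 (95% confidence interval -0.62 to 1.09, edgeR adjusted p = 0.684). S100A4 (ENSG00000196154, 153543613 to 153550136) encodes metastasin, which binds nonmuscle myosin IIA. It ran at 27.65, 21.78 and 21.42 CPM in control and 14.53, 8.969 and 22.49 CPM in CYT libraries. CYT replicate 3 lay within the control range and the others below it, a log2 fold change of -0.62 (95% confidence interval -1.47 to 0.22, edgeR adjusted p = 0.244). It was -0.36 without CYT replicate 2 and -0.98 without CYT replicate 3, and S100A4 was called lower with the length correction and block (-1.02, edgeR adjusted p = 0.0337) and with either GC and length correction (0.017 and 0.0247). S100A3 overlaps S100A4 on the same strand, and counting could have split reads between them. S100A2 (ENSG00000196754, 153561108 to 153567890), an S100 gene of epithelial cells, was the least counted member, with 49 to 84 counts in control and 23 to 45 counts in CYT libraries. On the CPM scale it had 5.146, 2.609 and 6.039 in control and 2.892, 1.637 and 3.576 in CYT replicates 1 to 3. For S100A2, the log2 fold change of -0.76 had a 95% confidence interval of -1.82 to 0.29 (edgeR adjusted p = 0.254), which holds both a fall and no change. It was -0.50 without CYT replicate 2 and -0.39 with limma on log2(FPKM + 1).

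CYT replicate 2 was an extreme of its group for all 10 members. It was the lowest CYT library for 5 of 5 S100 members and for ANXA6, and the highest for the other 4 annexin members. The same division followed base composition. The 6 members lowest there had principal transcripts of 53.2% to 58.4% GC, and the 4 highest there had 39.3% to 46.5% GC. In control, replicate 2 was the lowest library for 4 of those 6, and among the 4 it was the highest for 1 (ANXA1) and the lowest for 1 (ANXA5). A correction for GC content and for the length behind the deposited FPKM was chosen after seeing the data. With it, 4 members were called (ANXA2 and ANXA5 higher, S100A4 and ANXA6 lower), beside 46.5% of all genes. The part of base composition in the differences between groups was not tested beyond this fit.

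**Figure D2:**
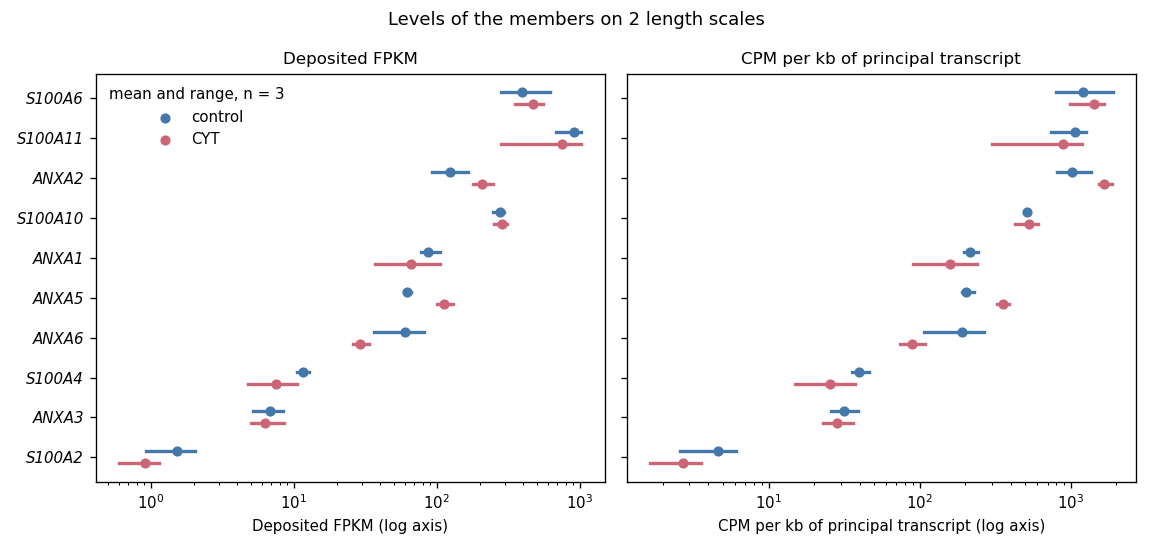
Mean level (point) and range over 3 libraries (line) of each member in control (blue) and CYT-treated (red) cells, as deposited FPKM on the left and as CPM per kilobase of the principal transcript on the right, both on log axes. ANXA2 is below S100A10 in FPKM and above it per kilobase of principal transcript in both groups.

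The order of levels among the members depended on the length by which the counts were divided. For each member, the length implied by the deposited count and FPKM equalled the sum of all distinct exons annotated in GENCODE 29, in which overlapping exons of different transcripts count repeatedly. This held within 1 bp for 92.2% of 13598 genes compared, whereas the merged exonic length matched for 12.8%. For ANXA2, with 67 distinct exons in 38 transcripts, the implied length of 13548 bp was 8.08 times the principal transcript of 1676 bp. For S100A11 it was 680 bp, or 1.14 times. A gene with many annotated isoforms therefore has a low deposited FPKM for its count.

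By deposited FPKM in control cells, S100A11 led with 913, followed by S100A6 (396), S100A10 (277), ANXA2 (125), ANXA1 (87.3), ANXA5 (62.3) and ANXA6 (60.1). S100A4 (11.6), ANXA3 (6.81) and S100A2 (1.53 FPKM) came last. Per kilobase of the principal transcript, the control means were 1202 CPM for S100A6, 1065 for S100A11 and 1015 for ANXA2, and the library ranges of neighbours among these overlapped. S100A10 followed at 509.9 CPM per kilobase, with a range apart from those of ANXA2 above and ANXA1 (215) below. ANXA1, ANXA5 (202) and ANXA6 (189) overlapped in turn, as did S100A4 (39.4) with ANXA3 (31.4), and S100A2 stood lowest and apart at 4.61 CPM per kilobase. In CYT-treated cells ANXA2 had the highest mean on this scale at 1651 CPM per kilobase, with S100A6 at 1411 and S100A11 at 882. The library ranges of ANXA2 (1543 to 1859.7) and S100A6 (985 to 1654) overlapped, so their order was not resolved. ANXA2 took rank 4 by deposited FPKM at 206. In the first fit, made on counts, the fold changes between groups do not depend on this choice. The fits with a length correction and limma on FPKM used the implied length, so their fold changes do depend on it.

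**Figure D3:**
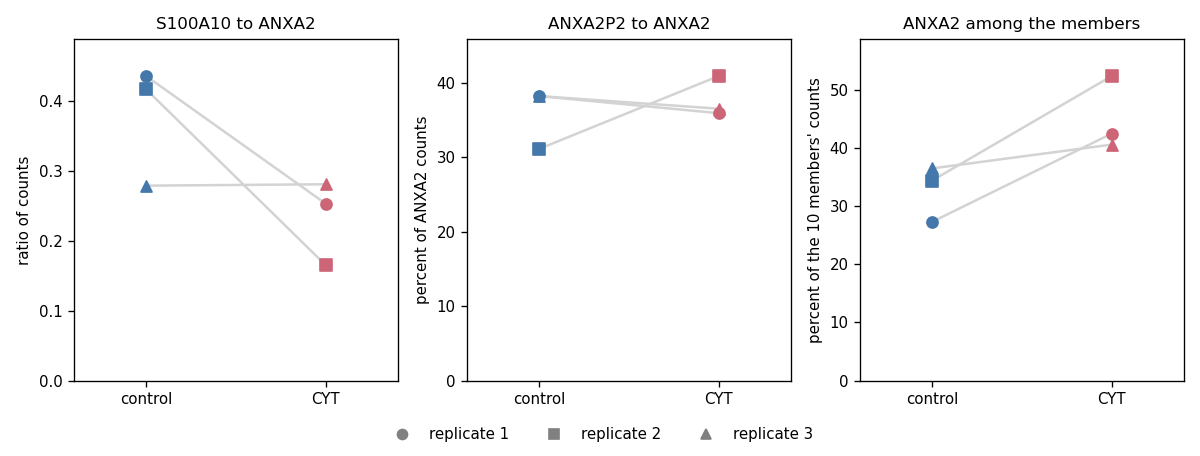
From left to right, the ratio of S100A10 to ANXA2 counts, ANXA2P2 counts in percent of ANXA2 counts, and ANXA2 counts in percent of the counts of all 10 members, per library, with y axes from 0 and grey lines joining libraries of the same replicate number. ANXA2 takes 27.3% to 36.5% of the members' counts in control and 40.6% to 52.4% in CYT libraries, while the other 2 ratios overlap between groups.

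S100A10 and annexin A2 assemble as a heterotetramer, so the ratio of their transcripts was compared. The count ratio of S100A10 to ANXA2 was 0.436, 0.417 and 0.279 in control and 0.253, 0.165 and 0.281 in CYT replicates 1 to 3. CYT replicate 3 was level with control replicate 3, and the other CYT libraries were lower. On the log2 scale per kilobase of implied length, the mean was 1.19 ± 0.355 in control and 0.489 ± 0.409 in CYT libraries (SD, n = 3 each), a difference of -0.704 (two-sided p = 0.2 from an exact permutation test, where 3 against 3 allow no less than 0.1). Within replicate numbers 1, 2 and 3 the differences were -0.785, -1.34 and 0.0124. Taken singly, S100A10 had a log2 fold change of 0.046 and ANXA2 of 0.70.

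Together the 10 members held 0.458%, 0.453% and 0.619% of all gene counts in control and 0.612%, 0.64% and 0.6% in CYT replicates 1 to 3 (two-sided p = 0.3 from an exact permutation test). The 5 annexin members took 0.304 ± 0.0463% of counts in control and 0.406 ± 0.0755% after CYT treatment (SD, n = 3 each), without overlap (two-sided p = 0.1 from an exact permutation test, the smallest possible). ANXA2 alone held 0.169% and 0.28%, a difference of 0.111 percentage points beside 0.102 for all 5 annexin members. The 5 S100 members took 0.206 ± 0.0489% and 0.211 ± 0.056% (SD, n = 3 each), with overlap. ANXA2 alone made up 32.7 ± 4.83% of the members' counts in control and 45.1 ± 6.33% in CYT libraries (SD, n = 3 each), again without overlap (two-sided p = 0.1 from an exact permutation test).

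**Figure D4:**
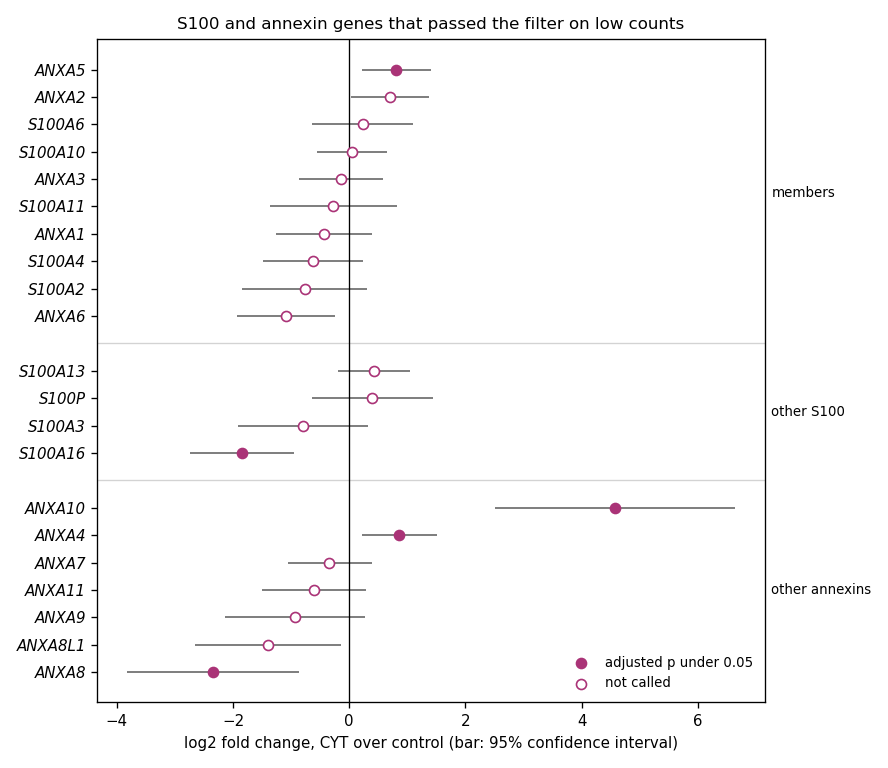
Log2 fold change of CYT over control (x axis) with its 95% confidence interval for the members and for the other S100 and annexin genes that passed the filter on low counts. Filled points have an adjusted p under 0.05 in edgeR's quasi-likelihood test, which are ANXA5 among the members and S100A16, ANXA10, ANXA4 and ANXA8 among the other genes.

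Of 15 further S100 genes, 4 passed the filter on low counts, and 1, S100A16, was called, as lower (12.9% of all genes were). S100A16 encodes a widely expressed S100 protein, and its gene is the next S100 gene beside S100A2 in the cluster. It had 893.2, 314.2 and 656.5 CPM in control and 159.3, 149.1 and 211.7 CPM in CYT replicates 1 to 3, with no overlap. The log2 fold change of -1.84 (standard error 0.40, edgeR adjusted p = 0.00793) was called in all 18 alternative fits. In order along chromosome 1, the tested genes of the cluster from S100A6 onward had log2 fold changes of 0.23 (S100A6), -0.62 (S100A4), -0.79 (S100A3), -0.76 (S100A2), -1.84 (S100A16) and 0.42 (S100A13). S100A3, at -0.42 without CYT replicate 2, was not called (edgeR adjusted p = 0.253) except in 4 alternatives, among them the replicate block (edgeR adjusted p = 0.049), and neither was S100A13 (0.269) nor S100P (log2 fold change 0.40, edgeR adjusted p = 0.542). The remaining 11 genes did not pass the filter, though without CYT replicate 1 S100A5 passed it and was called lower. Their highest counts in a library were 37 for S100A1, 21 for S100A5, 13 for S100A14, 12 for S100Z, 9 for S100G, 5 for S100A9 and 3 for S100B. S100A7, S100A7A, S100A8 and S100A12, which are known from skin and myeloid cells, had 0 counts in every library.

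Of 8 further annexin genes, 7 passed the filter, 2 were called higher and 1 lower, beside 15.7% and 12.9% of all genes. ANXA4, an annexin of secretory epithelia, had 72.29, 74.91 and 63.2 CPM in control and 109.5, 154.6 and 119 CPM in CYT libraries, and rose, with a log2 fold change of 0.86 (standard error 0.28, edgeR adjusted p = 0.0452). Its call held in 10 of 18 alternatives. With libraries left out singly it held without CYT replicate 2 and was lost without any other library (edgeR adjusted p from 0.0816 to 0.179). ANXA10, an annexin of gastric epithelium, had 0, 0 and 3 counts in control and 27, 25 and 18 counts in CYT replicates 1 to 3. The ratio of pooled counts scaled to library size was 27.9 (exact 95% interval 9.17 to 139, for counting error only), and edgeR called it higher (edgeR adjusted p = 0.00578). ANXA8 fell from 25, 14 and 16 counts to 3, 5 and 1 (log2 fold change -2.34, edgeR adjusted p = 0.0247). The ANXA8 call held in 10 of 17 alternatives. It was lost with limma on log2(FPKM + 1) and where the block was joined to the length or the GC and length correction. It was also lost without control replicate 1 or 3 or CYT replicate 1 or 3 (edgeR adjusted p from 0.0804 to 0.106). Without any of these 4 libraries, ANXA10 was the single further annexin called. ANXA8L1, a near-identical copy of ANXA8 (99.5% identity over 1098 coding bases), was at -1.39 (edgeR adjusted p = 0.0895). The split of reads between ANXA8 and ANXA8L1 is uncertain. ANXA7, ANXA9 and ANXA11 had log2 fold changes of -0.34, -0.93 and -0.61 without a call, and ANXA13 had no more than 4 counts in a library.

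**Figure D5:**
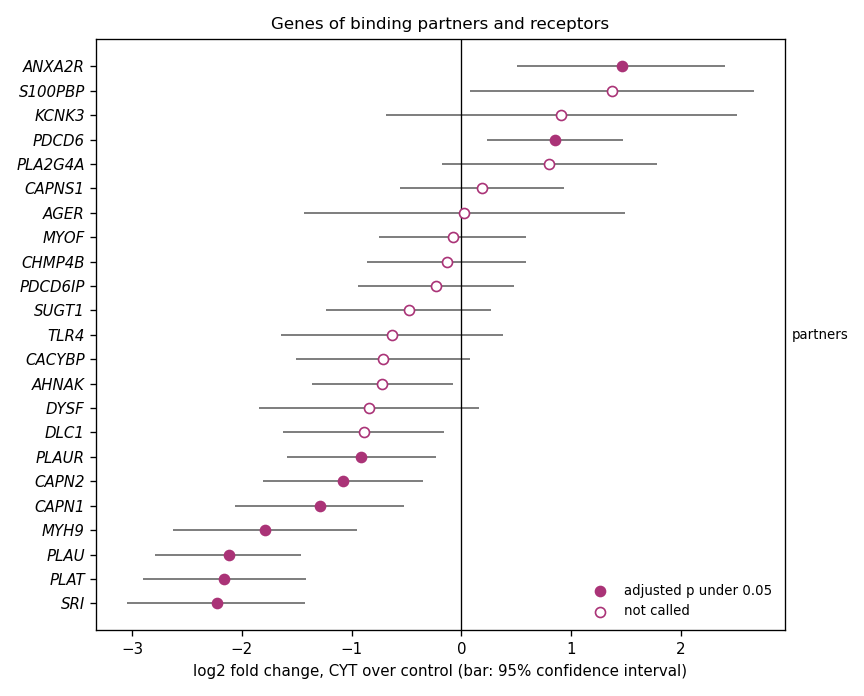
Log2 fold change of CYT over control (x axis) with its 95% confidence interval for the 23 partner genes that passed the filter on low counts. The 9 filled points have an adjusted p under 0.05 in edgeR's quasi-likelihood test, 7 of them lower and 2 higher after CYT treatment.

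The proteins that bind, receive or act with S100 proteins and annexins were taken as a list of 30 genes, of which 23 passed the filter and 9 were called, 7 lower and 2 higher, beside 28.6% of all genes (12.9% lower and 15.7% higher). Over the 23 the median log2 fold change was -0.63, beside 0.00636 over all genes. Without CYT replicate 1, 4 of the 23 were called, beside 20.7% of all genes. Without control replicate 1, control replicate 2 or CYT replicate 3, 5 were called, beside 18.3%, 23.3% and 19.8% of all genes, so the share of partner genes was then close to the background. The genes of plasminogen activation, a reaction that the annexin A2 and S100A10 complex assists at the cell surface, were among those that fell. PLAU (urokinase) had 464.4, 371 and 392.4 CPM in control and 83.58, 81.29 and 117.5 CPM in CYT libraries, a log2 fold change of -2.12 (edgeR adjusted p = 0.00131). PLAT (tissue plasminogen activator) was at -2.16 (edgeR adjusted p = 0.0019) and PLAUR (the urokinase receptor) at -0.91 (edgeR adjusted p = 0.0472). PLAU and PLAT were called in all 18 alternatives and PLAUR in 6, and with libraries left out singly PLAUR was called without CYT replicate 2 and not without any other (edgeR adjusted p from 0.0563 to 0.171).

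MYH9, the heavy chain of the nonmuscle myosin IIA that S100A4 binds, went from 1777, 766.4 and 1047 CPM to 375.1, 255.8 and 406.7 CPM, a log2 fold change of -1.79 (edgeR adjusted p = 0.00663). The same test called SRI (sorcin), a penta-EF-hand protein that binds annexin A7, with 109, 84.71 and 102.4 CPM in control and 13.61, 29.97 and 19.31 CPM in CYT libraries (log2 fold change -2.23, edgeR adjusted p = 0.00235). MYH9 and SRI kept their calls in all 18 alternatives. The large subunits of calpain, calcium-dependent proteases of membrane repair, were lower as well, CAPN1 at -1.29 (edgeR adjusted p = 0.0193) and CAPN2 at -1.08 (edgeR adjusted p = 0.0319). Their calls held in 16 and 11 of 18 alternatives. That of CAPN1 was lost without control replicate 1 or CYT replicate 1 (edgeR adjusted p = 0.0659 and 0.0647), and that of CAPN2 without any library but CYT replicate 2 (0.0611 to 0.12). The small subunit gene CAPNS1 was not lower (log2 fold change 0.19, edgeR adjusted p = 0.697). It was called, as higher, only with the GC and length correction. The genes called higher were ANXA2R, described as a receptor for annexin A2 (log2 fold change 1.46, edgeR adjusted p = 0.0278), and PDCD6, the penta-EF-hand protein ALG-2 of membrane repair (0.85, edgeR adjusted p = 0.043). They were called in 14 and 12 of 18 alternatives. With libraries left out singly, ANXA2R kept its call without control replicate 3 or CYT replicate 2 (edgeR adjusted p from 0.0586 to 0.102 in the other fits), and PDCD6 without CYT replicate 2 (0.0777 to 0.144). The formyl peptide receptor genes FPR1, FPR2 and FPR3, through which annexin A1 acts, had no more than 3, 2 and 7 counts in a library.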

How the data were processed

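The data were 3 RNA-seq libraries of control and 3 of CYT-treated MDA-MB-231-DR cells, and libraries were grouped by the sample labels. The authors aligned clean reads with Hisat2 and deposited raw counts and FPKM values for 58302 genes in 1 table. The submitters' processing notes name hg38 and FastQC 0.12.1. The methods name Stringtie for the FPKM. How reads were counted for the raw counts, by which program, with which strand setting and with what rule for multiply matching reads, is not given in the sources used here. The deposited FPKM is the count divided by the summed gene counts and by 1 length per gene, so it is no separate measurement.

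Counts were tested in R 4.3.3 with edgeR 4.0.16 (TMM normalization, filterByExpr with a minimum count of 10, quasi-likelihood test, Benjamini-Hochberg adjustment over 15572 genes). The biological coefficient of variation was 37.5%. Standard errors were derived from each fit's F statistic. The scripts were tested on simulated counts. Single values were compared with two-sided exact permutation tests. Other settings tried were a replicate block, a length correction, leaving out each library, another tool (DESeq2 1.42.0), limma 3.58.1 on FPKM with pseudocounts of 1 and 0.1 before the log2, upper-quartile scaling, and either no filter or one at a mean of 5 CPM. Corrections for GC content and length, and sums over near-identical copies, were added after seeing the data. Every length correction used the length implied by count and FPKM, not that of the principal transcript. Transcript sequences, lengths and loci came from GENCODE 29. The principal transcript is the one annotated as such there.

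All replicate pairs differed by far more than sampling noise (chi-square per gene of 26.4 or more). Same-numbered libraries were treated as paired in the fits with the replicate block. Their deviations from the group means correlated across genes with r of 0.237 for number 1, 0.51 for number 2 and 0.134 for number 3. Control replicate 1 correlated more with CYT replicate 3 (0.369), and control replicate 3 more with CYT replicate 1 (0.236). Only number 2 stood out in this check, so the pairing rests mainly on the label numbers.

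The members and gene lists were chosen with earlier results of these data known. Named are all members, the other S100 and annexin genes, pseudogenes and overlapping genes of the members, and partner genes that were called. BX470102.1, AC087385.1 and ANXA2P3 had no more than 10 counts in a library, and S100A11P1 and S100A11P2 had 0. The FPR genes, CAPNS1, DLC1 and the single markers were named after their values were seen.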

Additional observations from a re-analysis of the deposited data

How the results depend on the processing

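Of the 10 members, 1 was called, against 2 with DESeq2 or the replicate block, 4 with GC and length correction, 5 when the block was added to the length or to the GC and length correction, and 0 to 2 with a library left out. All genes called were 28.6% in the first fit, 33.9% with DESeq2, 39.9% with the block, 46.5% with GC and length correction, 39.7% and 45.6% when the block was added to either correction, and 17.6% to 35.6% with a library left out. Other S100 genes called were 1, and 2 with the block, the length correction with the block, or either GC and length correction, with a range of 1 to 2 over the fits with a library left out. Other annexin genes called were 3, and 1 with a mean of at least 5 CPM (3 genes tested) or limma on log2(FPKM + 1), and 1 to 3 with a library left out. Partner genes called ran from 4 to 11 with a library left out.

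Signs changed for members whose fold change was near 0. S100A6 was -0.068 with length correction, -0.0066 with the block added, and -0.012 (without control replicate 2) to 0.69 over the fits with a library left out. S100A10 was -0.021 without a filter, -0.25 with length correction with or without the block, -0.15 with GC and length correction, -0.14 with the block added, and -0.048 to 0.17 with a library left out (-0.0035 without control replicate 1, -0.048 without CYT replicate 3). S100A11 ran from -0.53 to 0.14 with a library left out, the latter without CYT replicate 2. ANXA3 was 0.0066 under upper-quartile normalization, which moved the median of all genes to 0.155, and -0.36 to 0.021 with a library left out, the latter without control replicate 3. The members' share of counts differed by 0.107 percentage points and their share of summed FPKM by -0.0897, both with overlap. With a library left out, the difference in the share of counts ran from 0.0787 (without control replicate 2) to 0.162 (without control replicate 3). The cause of the opposite signs was not tested. The fit with the replicate block also called ANXA6 (edgeR adjusted p = 0.023) and S100A3 (edgeR adjusted p = 0.049). It called the partner gene DLC1 lower too (edgeR adjusted p = 0.0176, against 0.0646 in the first fit). With DLC1, 10 partner genes were called, beside 39.9% of all genes. The other members and the other S100, annexin and partner genes that were tested stayed on their side of the threshold. Few counts stand behind S100A2 (23 to 84 a library), ANXA8 (1 to 25) and ANXA10 (0 to 27).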
